A study of Arabidopsis thaliana with 8 samples.

Results

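Plates TC17 to TC30 are 13 numbered plates of a tiling array of Arabidopsis thaliana chromosome 4, on which histone H3 dimethylated at lysine 4 (H3K4me2) was profiled by chromatin immunoprecipitation (ChIP-chip). The tiles were chosen by their ID alone, which gives a series, a plate and a well: series TC, plate number 17 to 30, with a value on every array. This rule found 1099 tiles of the 21296 with a value in the whole table, out of 1133 listed on these plates. The set was known from earlier results to lie low, so its level below is a description and not a test.

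All chromatin was from 1 group, untreated C24 seedlings kept in liquid medium for 10 days. Immunoprecipitated DNA (IP) was set against input DNA in 4 replicates (I to IV, 50 µg of chromatin each), and every replicate was run as a dye swap on 2 arrays. No label ties the replicates to separate cultures, and every p-value below reflects only how these 4 replicates scatter, which may be technical. Whole seedlings hold many cell types, and a value shared by all cells cannot be told apart from an average over cells that differ.

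H3K4me2 is known from textbook work as a mark of genes in euchromatin, the open and gene-rich part of the genome. It is sparse in heterochromatin, the compact and transposon-rich part, which on Arabidopsis chromosome 4 lies around the centromere and in a knob on the short arm. Active and inactive genes can both carry dimethylated lysine 4, in contrast to the trimethylated form, which follows transcription more closely. The tiles of TC17 to TC30 were not placed on the chromosome here, and no gene name or sequence was tied to them.

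Each value is a log ratio between the 2 channels of an array. The sources used here give neither the base nor the direction (IP over input or the reverse), so no fold change is stated. Below and above describe the deposited values: if the ratio were input over IP, the tiles called below would be the ones richer in IP. Each replicate was centred on its median over all tiles, and a tile is called above or below that array median in the deposited log units. Both arrays of every dye swap held identical values at all 21296 tiles, so n was 4. Across all tiles the highest Pearson's r were those of I with III, 0.986, and of II with IV, 0.987, and the other pairs were at 0.945 to 0.9499. The labels do not say what the replicates of such a pair share. In the array titles I and II have numbers in common, as do III and IV, which is another pairing. What these numbers stand for is not stated.

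The tiles of TC17 to TC30 lay far below the array median in every replicate. Their medians were -2.35, -2.10, -2.37 and -2.12 in replicates I to IV, with a mean of -2.23 ± 0.15 (SD, n = 4). Over the 20197 other tiles the median was 0.092 ± 0.004, so the difference between the sets was far larger than the spread between replicates. The quartiles of the low set were -2.76 ± 0.14 and -1.56 ± 0.14, and its 95th percentile was -0.05 ± 0.13.

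Nearly every tile of these plates was on the low side. In limma's moderated test across all tiles, with Benjamini-Hochberg adjustment at 0.05, 1023 of the 1099 tiles (93.1%) were below the array median, where 42.3% of all tiles were. Only 29 (2.64%) were above it, against 42.2% of all tiles, and 47 did not pass the threshold. All 4 replicates also had the same sign in 1022 of the 1023 low tiles (background with this added condition, 41.9% of all tiles) and in 27 of the 29 high ones (41.6%). Without the centring, on the values as deposited, 1064 of the tiles were below 0 and 5 above, against 54.9% and 20.5% of all tiles by the same limma test. A mean under -3 was found in 155 tiles (14.1%), compared with 3.92% of all tiles. In TA21 to TA30 and TA37 to TA51, other long low blocks of the array, the share was 20.3% and 16.5%.

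**Figure D1:**
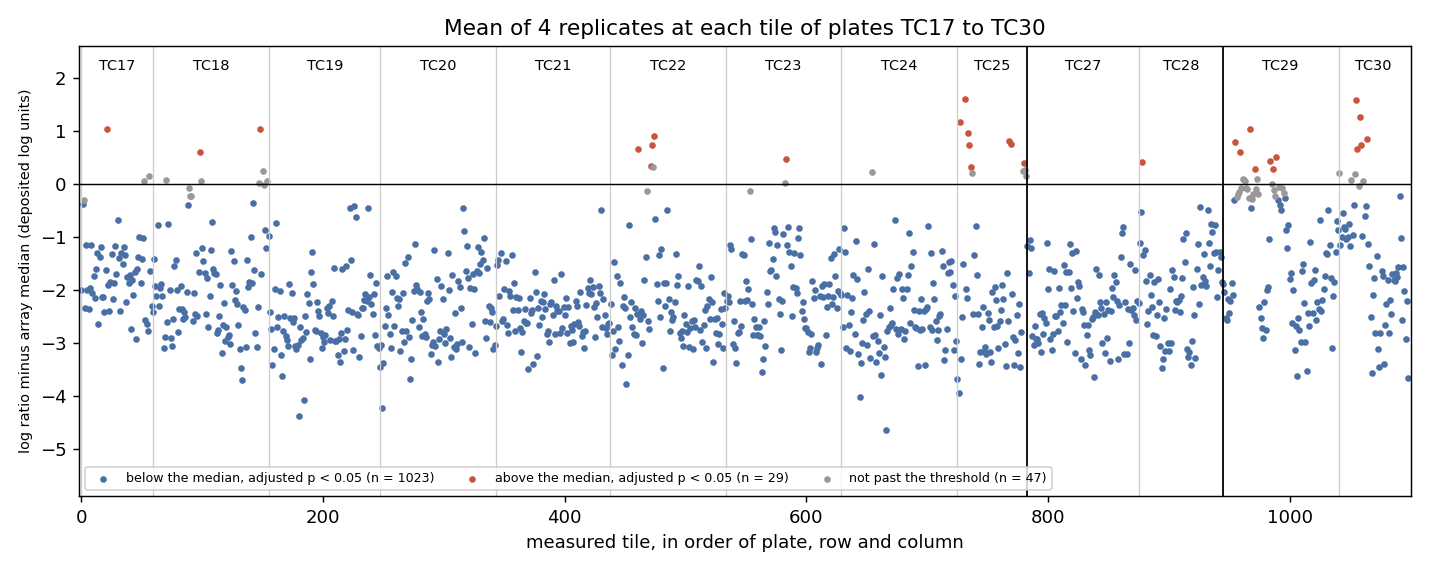
Each point is 1 of the 1099 measured tiles of plates TC17 to TC30, placed in order of plate, row and column on the horizontal axis; the vertical axis is the mean log ratio of 4 replicates minus the array median, in deposited log units. Thick vertical lines mark the starts of TC27 and TC29. The 5th and 95th percentiles of the set are -3.37 and -0.05 (means of 4 replicates), and 20 of the 29 tiles above the median are on TC25, TC29 and TC30.

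The IDs of these plates formed 3 unbroken stretches. The first ran from TC17D01 to TC25G05 with 783 measured tiles, the next from TC27A01 to TC28F10 with 162, and the last from TC29A01 to TC30F02 with 154. Their medians were -2.32 ± 0.12, -2.24 ± 0.18 and -1.42 ± 0.16 (SD, n = 4). The last stretch was higher than the first by 0.96, 0.96, 0.81 and 0.88 in replicates I to IV, and the middle one by 0.05, 0.15, 0.01 and 0.11. The last stretch was also more mixed, and its interquartile range was 1.99 ± 0.06, against 1.07 ± 0.02 in the first stretch and 1.14 ± 0.16 in the middle one. The stretches were drawn after the values were known, so these differences carry no test.

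The first and the last stretch also differed in how many of their tiles passed the limma threshold. Below the median were 746 of 783 tiles in the first, 161 of 162 in the middle one and 116 of 154 in the last. Above it were 16, 1 and 12 tiles. A further 26 tiles of the last stretch (16.9%) were on neither side, compared with 21 (2.68%) in the first and 0 in the middle one. In the middle stretch all 162 tiles had an unadjusted limma p under 0.05. So did 765 of 783 in the first, 128 of 154 in the last and 18144 of 21296 on the whole array. The high tile there was TC28A03, with 0.42, 0.40, 0.37 and 0.45 in replicates I to IV (limma adjusted p = 0.0025). On the values as deposited its mean was -0.21, and with the pairs I/III and II/IV averaged its call was lost (limma adjusted p = 0.0788). In that averaged setting limma gave all tiles a common spread. A call there rests on the size of the mean and not on how the tile's replicates agree.

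The split at the missing plate number TC26 was compared over replicates. It falls at a border of the stretches above, which were drawn after the values were known. Its p-values are therefore given as a description. TC27 to TC30 together had a median of -1.95 ± 0.25 and exceeded TC17 to TC25 by 0.35, 0.49, 0.21 and 0.47 in replicates I to IV. The mean difference, 0.38 ± 0.13, was positive in 4 of 4 replicates (exact permutation by sign flips, two-sided p = 0.125, adjusted 0.15 over 6 such tests). The interquartile range was wider by 0.44 ± 0.06 with the same exact p = 0.125 (adjusted 0.15). With 4 replicates no p under 0.125 is possible. TC27 and TC28 alone exceeded TC17 to TC25 by 0.08 ± 0.06, and TC29 and TC30 alone by 0.91 ± 0.07.

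All 13 plates had a median under -1 in all 4 replicates. TC19 had the lowest mean of the 4 medians, with -2.85, -2.33, -2.63 and -2.47 in replicates I to IV. It was the lowest plate in replicate I alone, and TC22 was lower in II and IV and TC20 in III. The highest in every replicate was TC30, at -1.28, -1.19, -1.39 and -1.30, so that TC19 and TC30 did not overlap. From TC19 to TC27 the plate medians stayed between -2.57 and -2.15. TC20 (-2.42 ± 0.22), TC21 (-2.40 ± 0.18) and TC22 (-2.42 ± 0.04) differed by less than their spread. TC23, at -2.15 ± 0.04, was higher than TC22 in every replicate. The plates at either end were higher, with -1.72 ± 0.33 for TC17 and -2.001 ± 0.13 for TC18 at the start, and -1.91 ± 0.33 for TC28, -1.56 ± 0.23 for TC29 and -1.29 ± 0.08 for TC30 at the end.

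**Figure D2:**
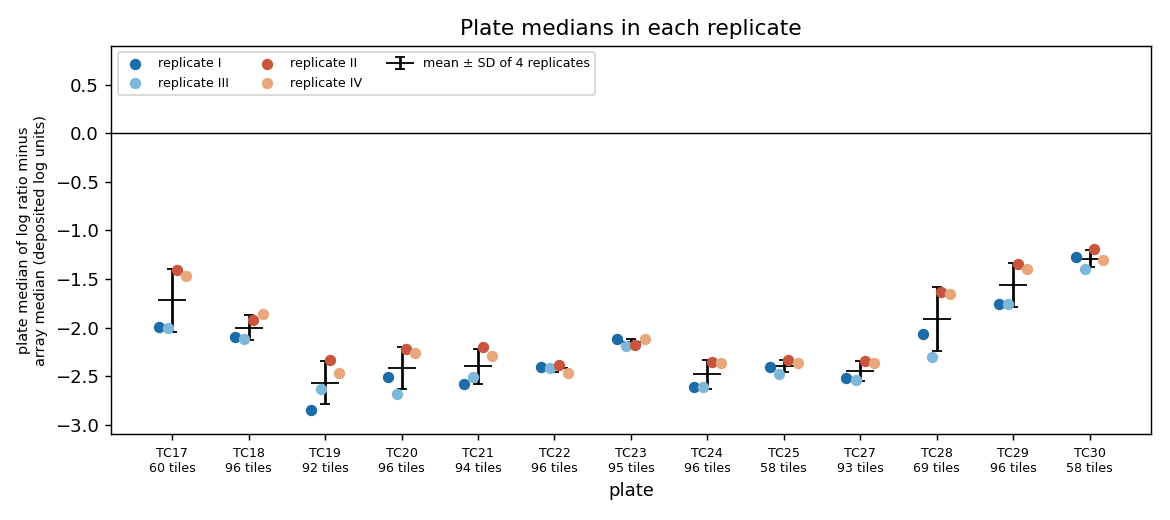
For each of the 13 plates (horizontal axis, with its number of measured tiles), points give the median log ratio minus the array median in replicates I to IV, and the bars give their mean ± SD, in deposited log units. By the mean of 4 replicates TC19 is the lowest at -2.57 and TC30 the highest at -1.29, and in 10 plates both II and IV lie above both I and III.

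The replicates differed in pairs within these plates. The medians of II and IV were both higher than those of I and III on 10 of the 13 plates, the exceptions being TC22, TC23 and TC30. On TC17 the medians of I and III were -1.99 and -2.01, and those of II and IV were -1.41 and -1.47. On TC22 all 4 lay between -2.47 and -2.39. In TC00 to TC13 the order was the other way, with 0.46 and 0.49 for I and III against 0.40 and 0.34 for II and IV. Across the 1099 tiles Pearson's r was 0.943 for I with III and 0.944 for II with IV, and 0.869 to 0.885 for the other pairs. These r are across tiles, which share arrays and are not independent replicates.

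Plates also differed in how alike their own tiles were. TC21 was the most even, with an interquartile range of 0.62 ± 0.06 and all 94 measured tiles below the median. TC29 had the widest interquartile range, at 2.07 ± 0.11, with 68 tiles below, 7 above and 21 not past the threshold. By the SD of the tile means, TC25 was the least even, at 1.47 against 1.15 on TC29. On TC19, TC20, TC21 and TC27 every measured tile passed the limma threshold below the median, and on TC24 no tile was above it. By contrast 8 of the 58 measured tiles of TC25 were above it.

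Low tiles followed each other for long distances. From TC18H12 to TC22B11 all 306 consecutive measured tiles passed the limma threshold below the median. That run crosses 4 plate borders and had a mean of -2.42. The next longest were 95 tiles from TC27A01 to TC28A02, 78 from TC22D02 to TC23B08 and 72 from TC24C03 to TC25A05. Wells without a value were passed over in these counts, and a break in the IDs ended a run. The 1023 low tiles made 34 runs with a mean length of 30.1 tiles.

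The lowest tiles of the set stood well below their own surroundings. TC24D02, the lowest, had values of -4.80, -4.58, -4.58 and -4.64 in replicates I to IV (mean -4.65 ± 0.10, SD, n = 4; limma adjusted p = 2.4e-07). Its neighbours TC24D01 and TC24D03 had means of -3.28 and -2.79. TC19C02 was at -4.42, -4.16, -4.33 and -4.62 in I to IV, between TC19C01 at -3.05 and TC19C03 at -2.70. TC20A02 was at -4.12, -4.34, -4.48 and -4.02, between TC20A01 at -3.04 and TC20A03 at -3.38. In each of these 3 tiles all 4 replicates lay below the means of both neighbours. They were chosen as the lowest of the set, so this follows largely from the choice and is a description.

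Tiles under -3 seldom made long patches. There were 9 patches of at least 3 such tiles, with 33 tiles in all, and the longest had 6, from TC19H10 to TC20A03. Its tiles ran from -4.24 to -3.04, and its medians were -3.28, -2.81, -3.73 and -3.16 in replicates I to IV. At its tile TC19H10 replicate III was at -4.73 and the others between -2.86 and -2.03, and at TC19H12 replicate IV was at -4.69 and the others between -3.29 and -2.77. In TA21 to TA30, another long low block of the array, 16 such patches held 78 tiles, and in TA37 to TA51 16 held 62.

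The highest tile of the set was TC25B01, at 1.62, 1.73, 1.44 and 1.57 in replicates I to IV (mean 1.59 ± 0.12, SD, n = 4; limma adjusted p = 2.4e-06). The tile after it, TC25B02, was at -1.99, and the well before it had no value. TC30B04 followed at 1.83, 1.42, 1.67 and 1.40 in I to IV, and TC30B07 at 1.22, 1.43, 0.92 and 1.48. All 12 values of these tiles were above the median. A mean over 1 was found at 7 tiles of TC17 to TC30, among 4755 such tiles on the array.

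Single high tiles could stand directly beside very low ones. The largest step between adjacent tiles was at TC25A06, which had values of 1.09, 1.23, 1.11 and 1.24 in I to IV. TC25A05 before it was at -3.95, -4.02, -3.86 and -3.96, and TC25A07 after it at -3.49, -3.24, -3.43 and -3.09. The steps of 5.12 up and 4.48 down compare with a median absolute step of 0.53 between adjacent tiles of a plate (1055 pairs). The replicate SD was 0.08 at TC25A06, and both steps were far larger than the spread between replicates. TC25A06 lies in an even-numbered column of row A. In such columns of rows A, C, E and G, 18 of the 20 listed wells of TC25 had no value. Whether its value is affected was not tested, and a small replicate SD cannot show it. TC17E10 was another high tile beside low ones, at 0.75, 1.59, 0.63 and 1.20, between TC17E09 at -1.63 and TC17E11 at -1.92. Its mean of 1.04 was 0.42 on the values as deposited and then did not pass the threshold (limma adjusted p = 0.178).

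High tiles were mostly alone. The 29 tiles that passed the limma threshold above the median formed 23 runs, of which 18 were single tiles, and the longest had 3 tiles, TC25B04 to TC25B06. TC25B04 was at 1.13, 0.65, 0.85 and 1.17 in I to IV, and TC25B06, the weakest of them, at 0.22, 0.48, -0.01 and 0.57 (limma adjusted p = 0.037). The call of TC25B06 was lost with the pairs I/III and II/IV as a random block (limma adjusted p = 0.117), with these pairs averaged (0.178), and without replicate I (0.0636), II (0.127) or IV (0.151). With it lost, the run has 2 tiles. On the values as deposited, the mean of TC25B06 was -0.30 in place of 0.32, and that of TC25B04 was 0.33 in place of 0.95 and did not pass the threshold (limma adjusted p = 0.111). Other runs were TC30B04 with TC30B05 (mean 0.66), TC30B07 with TC30B08 (0.74), TC25F01 with TC25F02, and TC22C10 with TC22C11. On the values as deposited the means of TC30B05 and TC30B08 were 0.039 and 0.118, and neither passed (limma adjusted p = 0.805 and 0.678). Plates TC25, TC29 and TC30, with 212 measured tiles or 19.3% of the set, held 20 of the 29 high tiles. These 3 plates were singled out after their values were seen.

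The highest tiles of the other plates differed widely. On TC18 it was TC18H05, at 1.27, 1.20, 0.83 and 0.86 in I to IV, and on TC22 TC22D01, at 1.34, 0.49, 1.32 and 0.47. The mean of TC22D01, 0.91, was 0.28 on the values as deposited and did not pass there (limma adjusted p = 0.0985). On TC23 it was TC23E03, at 0.84, 0.16, 0.69 and 0.16, where I and III were higher than II and IV. Its mean of 0.46 was -0.16 on the values as deposited, and its call was lost without replicate I (limma adjusted p = 0.0691) or III (0.0624). On TC19, TC20, TC21 and TC27 even the highest tile was below the median. TC19G01 was at -0.43 ± 0.11, TC20F09 at -0.45 ± 0.14, TC21H05 at -0.50 ± 0.44 and TC27G10 at -0.83 ± 0.11 (SD, n = 4). The call of TC21H05 was lost without replicate I (limma adjusted p = 0.0878) or III (0.0821). With the pairs I/III and II/IV averaged, where all tiles have a common spread, those of TC19G01 (limma adjusted p = 0.067) and TC20F09 (0.0506) were lost. TC24C02, the highest of TC24, had values of 0.03, 1.09, 0.22 and -0.44, and its mean of 0.23 did not pass the threshold (limma adjusted p = 0.37) and was -0.062 without replicate II.

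Some longer stretches of TC17 to TC30 lay near the array median rather than below it. They were found, after the values were seen, as 4 runs of at least 5 consecutive measured tiles that each had a mean over -1, and held 54 tiles (4.91%). The runs were TC29A10 to TC29C06 with 21 tiles, TC29D04 to TC29E05 with 14, TC30A11 to TC30C01 with 14 and TC22C10 to TC22D02 with 5. Their medians were -0.06 ± 0.18, -0.12 ± 0.21, 0.06 ± 0.15 and 0.35 ± 0.27 (SD, n = 4). They held 15 of the 29 high tiles. Without them the median of TC29 and TC30 was -1.998 ± 0.24 over 105 tiles, and that of TC17 to TC25 was -2.33 ± 0.12 over 778. The rule picks tiles over -1, so it favours high tiles, and leaving the runs out must lower a median. These values are a description.

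**Figure D3:**
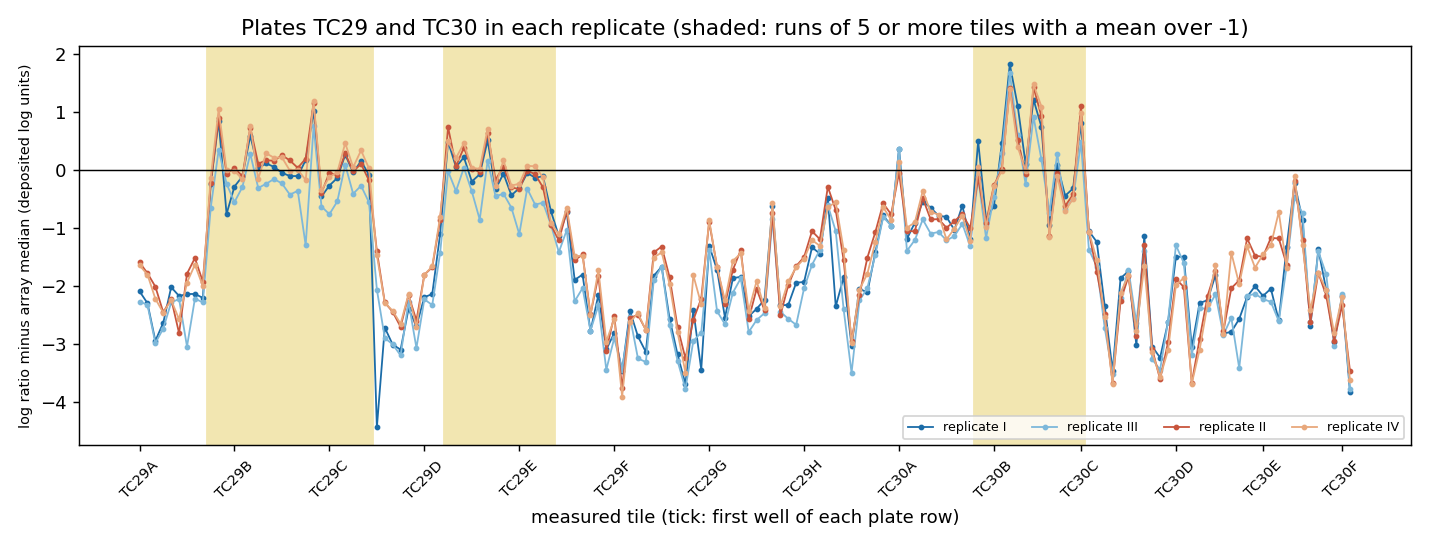
Lines give the log ratio minus the array median (vertical axis, deposited log units) of the measured tiles of TC29 and TC30 in ID order (horizontal axis) for replicates I to IV. Shading marks runs of at least 5 tiles with a mean over -1, whose medians are -0.06, -0.12 and 0.06, with low tiles on either side. All 4 replicates trace the same outline, and replicate I alone drops to -4.43 at TC29C07.

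The longest of these stretches had sharp borders. TC29A09 was at -2.20, -1.92, -2.28 and -1.99 in I to IV, and the next tile, TC29A10, was at -0.24, -0.22, -0.65 and -0.13. At the other end TC29C06 was at -0.08, -0.17, -0.55 and 0.03, and TC29C07 at -4.43, -1.39, -2.05 and -1.46. Inside, 15 of the 21 tiles did not pass the limma threshold, 4 were above the median and 2 below. The high tiles were TC29A11 at 0.79 ± 0.30, TC29B03 at 0.59 ± 0.22, TC29B11 at 1.03 ± 0.20 and TC29C03 at 0.28 ± 0.15. On the values as deposited TC29B11 was at 0.41 and did not pass the threshold (limma adjusted p = 0.0856). Replicate III was the lowest, with a median of -0.31 in the stretch, against -0.04, 0.11 and 0.01 in I, II and IV.

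Within this stretch the outline recurred after 12 tiles, which is also the length of a plate row. TC29A10 and TC29B10 had means of -0.31 and -0.27, TC29A11 and TC29B11 0.79 and 1.03, and TC29B03 and TC29C03 0.59 and 0.28. At TC29B10 replicate III, at -1.29, lay apart from the others. The 9 pairs of tiles 12 apart differed by a median of 0.09 and by 0.32 at most. Their Pearson's r was 0.87 ± 0.07 (mean and SD of 4 replicates, 9 pairs that share plate columns), and on the replicate means it was 0.93, or 0.90 over 8 pairs without TC29A11 and TC29B11. At distances of 1 to 11 tiles the r of the replicate means ran from -0.42 to 0.54. Plate columns also differed over all 13 plates. Of the columns that hold these pairs, column 10 deviated most from the plate medians, by -0.24 ± 0.04, and columns 1 and 5 by 0.16 ± 0.03 and 0.12 ± 0.04. Columns 11 and 3, with the highest pairs, deviated by 0.01 ± 0.01 and 0.01 ± 0.03. The part of the plate layout in the recurrence was not tested. The recurrence was noticed in the values and has no test.

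The other stretches differed in spread. From TC29D04 to TC29E05, 3 tiles were above the median, 5 below and 6 on neither side, and the tiles ran from -0.87 to 0.51. From TC30A11 to TC30C01 the range was from -0.99 at TC30B09 to 1.58 at TC30B04, with 5 tiles above and 5 below. The short stretch on TC22 began with a step from TC22C09 at -2.75 to TC22C10 at 0.33. It ended with TC22D02 at -0.66, before TC22D03 at -1.89. The 3 measured tiles of the last row of TC25 were also near the array median, with medians of 0.34, 0.42, -0.08 and 0.38 in replicates I to IV.

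Low tiles lay on both sides of the numbering gap. No tile within it was analysed, so where low values began cannot be seen. Before the gap, TC13B11 was at 1.84 and TC13C05 at 0.95, and the last 4 tiles were already low. TC13C07 was at -1.41, TC13C08 at -1.98, TC13C09 at -1.49 and TC13C10, the last before the gap, at -0.93, -0.64, -1.11 and -0.48 in I to IV. TC17D01, the first after it, was at -2.37, -1.41, -2.24 and -1.98, followed by TC17D02 at -0.39 and TC17D03 at -0.31. The values of TC13C10 and TC17D01 did not overlap. The set ended low, with TC30F02 at -3.82, -3.46, -3.76 and -3.62. No tiles of plates TC14 to TC16 or TC26 were analysed here.

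Compared with other blocks, TC17 to TC30 had nearly the same median as TA37 to TA51. Its median minus that of TA37 to TA51 was -0.020, 0.040, 0.0033 and -0.011 in replicates I to IV, with a mean of 0.0028 ± 0.026 (exact sign-flip permutation p = 0.875, two-sided, adjusted 0.875). The sign was not the same in all replicates, and every difference was small beside the interquartile range of the tiles. That range, 1.202 ± 0.03, minus that of TA37 to TA51 was -0.11, -0.11, -0.10 and -0.022 (exact p = 0.125, adjusted 0.15). In TA37 to TA51 the limma test put 94.3% of tiles below the median and 2.46% above, against 93.1% and 2.64% in TC17 to TC30.

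Against TA21 to TA30 its median was lower and its interquartile range narrower, but its lower tail was less deep. Its median minus that of TA21 to TA30 was -0.20, -0.12, -0.24 and -0.20 in I to IV, and for the interquartile range the differences were -0.83, -0.69, -0.81 and -0.75. Both differences had the same sign in 4 of 4 replicates, with the smallest exact p of 0.125 (adjusted 0.15). The 5th percentile was -3.37 ± 0.10 in TC17 to TC30 and -3.87 ± 0.10 in TA21 to TA30. TA21 to TA30 held 98 tiles above the median among 824 (11.9%), and 15.0% of its tiles lay in runs of at least 5 with a mean over -1, against 4.91% in TC17 to TC30. TC00 to TC13, on the other side of the numbering gap, had a median of 0.42 ± 0.07. TC17 to TC30 minus TC00 to TC13 was -2.81, -2.49, -2.87 and -2.46 in replicates I to IV, given here as a description.

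**Figure D4:**
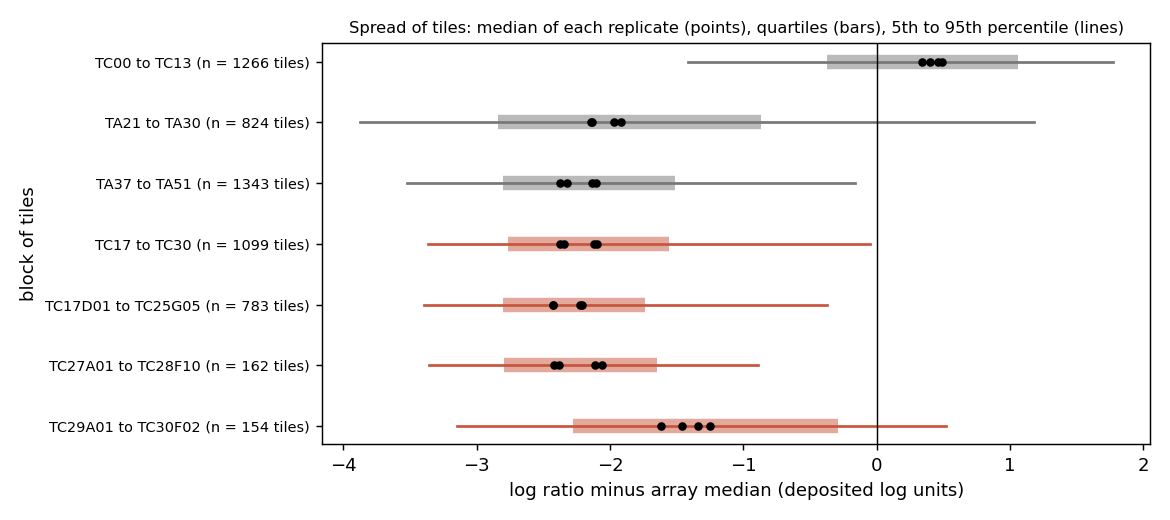
For each block of tiles (vertical axis), points give the median log ratio minus the array median in each of 4 replicates, thick bars run from the lower to the upper quartile and thin lines from the 5th to the 95th percentile (means of 4 replicates, deposited log units, horizontal axis). TC17 to TC30 at -2.23 lies beside TA37 to TA51 at -2.24, and its last stretch, TC29A01 to TC30F02, lies higher at -1.42.

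Neighbouring tiles of TC17 to TC30 resembled each other beyond the level of their plate. With each plate's median removed, Pearson's r of adjacent tiles within plates was 0.44 ± 0.03 (SD over 4 replicates, 1055 pairs), 0.33 ± 0.02 at 2 tiles, 0.18 ± 0.01 at 5 and 0.04 ± 0.02 at 12. In TC00 to TC13 it started at 0.48 ± 0.03 and was 0.20 ± 0.02 at 2 tiles and 0.05 ± 0.01 at 5. In TA21 to TA30 it was 0.63 ± 0.03 for adjacent tiles and 0.31 ± 0.01 at 5, and in TA37 to TA51 0.46 ± 0.01 and 0.12 ± 0.03. With the wells read down the columns instead, adjacent tiles of TC17 to TC30 had an r of 0.03 ± 0.02.

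**Figure D5:**
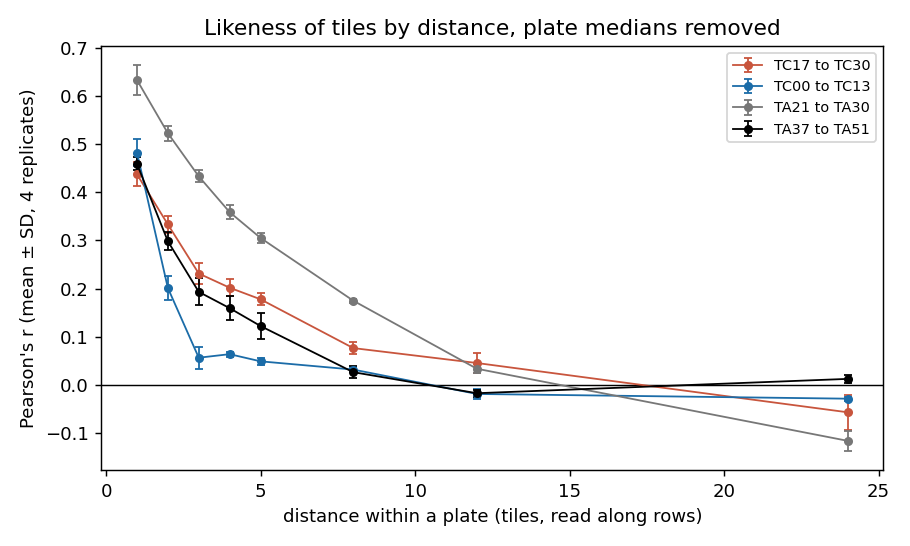
Pearson's r between tiles of the same plate (vertical axis, mean ± SD of 4 replicates, plate medians removed) by their distance in tiles along the plate rows (horizontal axis) in 4 blocks. TC17 to TC30 starts at 0.44 and is at 0.18 for 5 tiles, above TC00 to TC13 at 0.05 and below TA21 to TA30 at 0.31.

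Steps across plate borders were also examined. Of the 9 borders between consecutive plate numbers with a value on each side, 4 had a step of at most 0.5, the smallest being from TC23H12 at -2.06 to TC24A01 at -2.09. The largest was from TC18H12 at -0.99 to TC19A01 at -2.43. The median absolute step was 1.001 over these 9 borders, against 0.53 within plates.

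Single replicates departed from the rest at some tiles of this set. A tile was counted when 1 replicate was more than 1.5 from the median of the others while those lay within 1.5 of each other. This held for 25 of the 1099 tiles (2.27%), compared with 95 of all 21296 (0.446%), 4 of 824 in TA21 to TA30, 4 of 1343 in TA37 to TA51 and 0 of 1266 in TC00 to TC13. In 23 of the 25 the lone replicate was the lower one. It was I in 8 tiles, II in 4, III in 8 and IV in 5, and 7 of the tiles were among the 60 of TC17. TC21A12 had the largest SD of the set, 1.85, with values of -1.32, -1.04, -1.255 and -4.90 in I to IV. TC28C07 came next, at -1.98, -1.43, -4.74 and -1.38. All 25 tiles passed the limma threshold below the median, but the call of TC21A12 was lost with the pairs I/III and II/IV as a random block (limma adjusted p = 0.063). What set the lone replicates apart was not tested. The distance of 1.5 was chosen after the values were seen.

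Wells without a value were frequent on 1 plate. Of 34 blank wells on TC17 to TC30, 19 were on TC25, which lists 77 wells, and 18 of these 19 lay in even-numbered columns of rows A, C, E and G, where the plate lists 20 wells. On the other 12 plates 15 of 1056 wells (1.42%) were blank, 3 of them in such positions. Over all plates, 162 of the 465 blank wells were in such positions, which make up 25.02% of the wells. Plates TB58 and TA94 also had 19 blank wells each. The measured tiles of TC25 had a median of -2.40 ± 0.07, near that of the plates beside it. The medians of the 12 columns, relative to their plates, ran from -0.24 ± 0.04 in column 10 to 0.16 ± 0.03 in column 1, and those of the 8 rows from -0.21 ± 0.07 to 0.09 ± 0.08.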

How the data were processed

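The deposited value table holds log ratios of the 2 channels for 8 arrays in 4 dye swaps. The sources used here do not state the software, background correction, normalization, log base or direction. The channel with the IP was taken from the source names; the labels' sample type names input DNA for channel 1 of every array. The columns were not centred in the deposited table (medians -0.79, -0.46, -0.89 and -0.35 for I to IV). The common value of each swap, minus the median over all 21296 measured tiles, was analysed; 39 control features and 465 tiles had no value. Signal over background is unknown, and the number of arrays limits the precision (median standard error of a tile of TC17 to TC30, 0.11). Every tile's mean was tested against 0 by limma 3.58.1 (R 4.3.3, 3 residual degrees of freedom, Benjamini-Hochberg over all tiles at 0.05). The test was tried on simulated data with 4 independent replicates. Both the simulation and the main fit leave out the likeness of I with III and of II with IV. As a random block these pairs had a correlation of 0.7, so the simulation does not give the error rate for them. Differences of medians and of interquartile ranges were tested by exact sign flips over replicates, which also leave out this likeness of pairs. Python 3.11.15 with numpy 2.4.6, pandas 2.3.3, scipy 1.17.1 and matplotlib 3.10.9 gave the rest. Named tiles were the 3 highest and 3 lowest past the threshold with 1 sign, the ends and top of the 3 longest runs above the median, the tiles at the gap and the end, the 2 largest steps, the 2 largest SDs and each plate's highest; other tiles named were chosen after their values were seen. The plates, blocks and rules were chosen with earlier results of these data known. Alternatives were other centrings, scaling, quantile normalization, replicates left out, replicate pairs averaged or blocked, I with II or III with IV alone, and a minimum change. With I/III and II/IV averaged, with I and II or III and IV alone, and with centring on the mode, limma gave all tiles a common spread. Calls in these settings depend on the size of the mean alone.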

Additional observations from a re-analysis of the deposited data

Results flagged for a closer look

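Among 52 sets of 4 replicate values examined (plates, stretches, differences and named tiles), 1 had a replicate far from the others. At tile TC21A12 replicate IV was at -4.90, with the others between -1.32 and -1.04, and the gap was 0.93 of the whole range. The tile's call below the median was lost with the replicate pairs I/III and II/IV as a random block (limma adjusted p = 0.063). Chance sets apart about 1 in 20 such groups. That rate is no yardstick for TC21A12, which was among the sets because it had the largest SD of the member tiles.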

How the results depend on the processing

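The count of tiles below the array median stayed between 1000 and 1070 under every setting run on all 13 plates, against 1023. The count above it, 29, fell to 5 with the values as deposited and to 7 with centring on the mode, which lower all tiles together. The median of TC17 to TC30 was then -2.85 and -2.87. Of all tiles, 54.9% were then below and 20.5% above as deposited, and 57.2% and 22.6% with centring on the mode. In the main setting it was 42.3% and 42.2%. With replicates left out in turn 1016 to 1022 tiles were below and 23 to 29 above (of all tiles, 40.8% to 41.3% and 40.8% to 41.2%). With the resembling replicates averaged 1008 were below and 22 above (38.2% and 37.9% of all tiles). As a random block it was 1016 and 23 (39.1% and 38.9% of all tiles). Without plates TC25, TC29 and TC30, a setting chosen after seeing the data, 9 tiles were above. The difference from TA37 to TA51 ran from -0.0095 to 0.0105 with 1 replicate left out, and turned in sign without II. Read down columns, the neighbour r of 0.44 was 0.031. The other differences of medians kept their direction; the random block gives them no value and was not run on them. Of 29 named tiles, 15 kept direction and side of the threshold under all settings. With the values as deposited and with centring on the mode, respectively, TC25B06 turned to -0.30 and -0.32, TC23E03 to -0.16 and -0.17, TC24C02 to -0.40 and -0.41, and TC28A03 to -0.21 and -0.22. TC24C02 was also -0.11 with III and IV alone and ran from -0.062 to 0.45 with 1 replicate left out. The limit on runs near the median, moved after seeing the data, gave 46 to 81 tiles in place of 54. No paired analysis was possible because the samples form 1 group, with no other group to pair them with; differences between blocks of tiles were taken within each replicate.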
